A study of Mus musculus with 75 samples.

Results

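Dazl, Ddx4, Tex101, Taf7l, Slc25a31 and Brdt are 6 germline genes that were picked by name from the 26218 genes measured in 75 mouse libraries. All 6 passed the filter on low values in each of the 3 replicated experiments. Messenger RNA was read by SC3-seq, which sequences the 3' ends of transcripts, after amplification from 1 ng of RNA, and values are the deposited RPM, reads scaled to the size of each library. The libraries follow germ cells of the embryo and PGC-like cells (PGCLCs), which are made from embryonic stem cells and resemble primordial germ cells (PGCs). The series title names BMP and retinoic acid as the signals under study.

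Germline genes of this class carry promoters rich in CpG sites that are methylated in somatic cells. Primordial germ cells lose most of their DNA methylation as they migrate and settle in the gonad, and these genes come on around that time. Dazl encodes an RNA-binding protein that makes germ cells competent for sexual differentiation and meiosis, and Ddx4 (mouse vasa homologue) an RNA helicase of germ granules. Tex101 encodes a surface glycoprotein of germ cells, Taf7l an X-linked relative of the general transcription factor subunit TAF7, Slc25a31 (Ant4) the mitochondrial ADP/ATP carrier of germ cells, and Brdt a testis-specific bromodomain protein that reads acetylated histones. No DNA methylation was measured in the files used here.

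Stra8 knockout PGCLCs (genotype Stra8-/- with the transgenes Prdm1-mVenusTg/0 and Dppa3-ECFPTg/0, DBA/2:C57BL/6 background, n = 4 per time, of which SK1 gave 2 and SK2 and SK3 gave 1 each) were set against wild type PGCLCs of that background with the same transgenes (n = 2 per time), both as CT at culture day 3 and as RB at days 5, 7 and 9. PGCLCs of the 129S1:C57BL/6 background, again with Prdm1-mVenusTg/0 and Dppa3-ECFPTg/0, gave RB and RA at days 5, 7 and 9, CT at days 3, 5, 7 and 9, and the day 0 cells that went into culture (n = 2 each). A single library of that line is named 0R3B, at day 9. A C57BL/6 line that also carries Gtrosa26tm1Sor/0 gave 6 single libraries. The labels place factors for the female fate from culture day 3 onward and do not spell out RB, RA, CT, 0R3B, c0 or c7, which stand here as group names. Embryonic germ cells (ICR:C57BL/6 background, n = 2 per group) were taken on each embryonic day (E), with the sex given from E12.5 to E15.5 and not from E9.5 to E11.5.

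Embryonic cells were sorted by a Dppa3-EGFPTg/0 transgene up to E13.5 and by a Ddx4-RFPTg/0 transgene at E14.5 and E15.5, so stage and reporter cannot be told apart across that step. Ddx4 is thus both a sorting reporter from E14.5 and one of the genes described. PGCLCs were sorted by markers named BV and SC and grown on m220 feeder cells, with forskolin and rolipram in all culture groups. All groups are bulk samples, in which fewer cells of a type and less RNA per cell cannot be told apart. Estimated depth was 1.08 to 15.6 M reads per library (median 3.12), so that 3 reads, the smallest amount taken as measured here, correspond to 0.192 to 2.78 RPM. Of the 8 germ cell markers none was at 0 throughout any replicated group, and their summed level was lowest, at 56.2 to 81.5 RPM, in female E15.5 cells. The 8 include Dppa3, whose reporter was used for sorting embryonic cells up to E13.5. They also include Prdm1, and the PGCLC lines carry transgenes named for Prdm1 and Dppa3. The 8 are thus not an independent measure of germ cell content. Blood and endothelium markers summed to 2925 to 3133 RPM at E9.5, 156 to 159 at E10.5 and 3.37 to 10.9 at E11.5, with 0 of 6 markers at 0 in both E9.5 libraries. Counts of whole reads were recovered for 73 to 75 of 75 values in 5 of the genes, and for 57 of 75 values of Ddx4, within 0.05 reads. Spike-in transcripts summed to under 2000 RPM in 17 of 75 libraries. These were 14 of 24 in the Stra8 experiment, both at E9.5, and 1 of 6 in the C57BL/6 line. In the Stra8 experiment they fell in both genotypes at every day, and unevenly at days 7 and 9. There only the first SK1 library of the knockout and the first wild type library had 2000 RPM or more. The part of the spike-in level in the knockout comparisons was not tested.

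The promoters of 4 of the genes are printed because they show the CpG density of these genes. Dazl and Slc25a31 came on early in the embryo, and Tex101 and Taf7l after them. Each line is the 250 bases before a transcription start in RefSeq, written 5′ to 3′ on the gene's strand with CpG sites in capitals. The build is GRCm38.p6, the assembly of mm10, which the submitters' notes name. Slc25a31 lies on the plus strand and the other 3 on the minus strand. The stretches are chr17:50293621-50293870 for Dazl, chr3:40708621-40708870 for Slc25a31, chr7:24672051-24672300 for Tex101 and chrX:134476491-134476740 for Taf7l. On the same build Ddx4 spans chr13:112598333-112652633 and Brdt chr5:107331116-107387061, and all 6 genes are annotated as protein coding.
Dazl: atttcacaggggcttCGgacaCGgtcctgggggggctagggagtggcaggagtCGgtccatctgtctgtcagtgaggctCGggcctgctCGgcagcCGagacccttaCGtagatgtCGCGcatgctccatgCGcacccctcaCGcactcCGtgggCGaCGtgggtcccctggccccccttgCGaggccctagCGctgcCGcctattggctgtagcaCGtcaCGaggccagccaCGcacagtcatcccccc
Slc25a31: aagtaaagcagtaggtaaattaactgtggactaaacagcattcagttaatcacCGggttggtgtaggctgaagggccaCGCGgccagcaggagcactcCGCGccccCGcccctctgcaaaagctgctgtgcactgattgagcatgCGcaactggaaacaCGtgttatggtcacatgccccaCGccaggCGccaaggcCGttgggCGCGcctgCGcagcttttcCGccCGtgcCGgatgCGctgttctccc
Tex101: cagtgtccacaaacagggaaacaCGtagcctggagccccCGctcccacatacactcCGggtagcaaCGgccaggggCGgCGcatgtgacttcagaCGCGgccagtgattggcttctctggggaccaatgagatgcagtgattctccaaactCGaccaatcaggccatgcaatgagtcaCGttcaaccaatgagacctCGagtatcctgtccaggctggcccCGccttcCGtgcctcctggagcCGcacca
Taf7l: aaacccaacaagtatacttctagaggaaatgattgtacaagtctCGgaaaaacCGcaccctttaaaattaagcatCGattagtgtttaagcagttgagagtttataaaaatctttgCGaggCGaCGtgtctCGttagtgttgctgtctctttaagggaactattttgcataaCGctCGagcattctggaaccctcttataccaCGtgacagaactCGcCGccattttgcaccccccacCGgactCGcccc

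These stretches hold 20 CpG sites in Dazl, 18 in Slc25a31, 14 in Tex101 and 14 in Taf7l. In the full windows of 300 bases, which reach 50 bases past the start, the 6 genes held 17 (Taf7l) to 38 (Ddx4) CpG sites with a median of 22.5, against a median of 7 over all 32851 promoter windows of the table. This density was not particular to them: 10 windows of their paralogues had a median of 24.5 CpG sites, 12 windows of repressors of germline genes 29.5, and 23 windows of other methylation-sensitive germline genes 17.0. Ddx4 had the densest window, and 5.0% of all windows held as many CpG sites or more. For Taf7l 31.4% did. The Ddx4 window (chr13:112652261-112652560) lay wholly inside the annotated gene, so it is not the stretch before the outermost annotated start. The starts used for Brdt and Taf7l also lay inside their annotated genes, so the end of the printed Taf7l line is within the gene. The G+C share was 47.0% in Taf7l and 59.7 to 72.0% in the other 5 genes, so the Taf7l window reached 1.03 times the CpG number its base composition predicts.

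Each window was searched on both strands for 4 motifs, which do not overlap one another in these genes. CACGTG, the E-box read by MYC, MAX and MGA, was present in 4 of 6 windows (Ddx4, Taf7l, Slc25a31 and Brdt) and in 7.2% of all windows. GCGGGA, bound by E2F6, was present in 2 of 6 (Ddx4 and Slc25a31) and in 20.0% of all windows. Both this motif and CACGTG hold a CpG site, and the shares over all windows were not matched for CpG density. CCTCAG, the core described for STRA8, was present in 4 of 6 (Dazl, Taf7l, Slc25a31 and Brdt) and in 26.8% of all windows. AGGTCA, the hexamer read by nuclear receptors, was present in 0 of 6 and in 16.3% of all windows. In the printed lines the E-box begins 93 bases before the start of Slc25a31 and 49 bases before that of Taf7l. These are matches of letters only, and those of Ddx4 and the E-box of Brdt lie inside the annotated genes. The CCTCAG matches of Dazl, Taf7l and Slc25a31 and the GCGGGA match of Slc25a31 lie past the start, so within the genes too.

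In the embryo the 6 genes came on in an order. By the first stage at which both libraries reached 5 RPM and stayed there, Ddx4 and Slc25a31 were on at E9.5, Dazl at E10.5, Tex101 at E11.5, Brdt at E12.5 and Taf7l at E13.5. Up to E11.5 females and males share the same unsexed libraries, so the sexes can differ only for Brdt and Taf7l here, which reached the level at the same stage in both. Dazl, Ddx4 and Slc25a31 shared their onset at the other thresholds, E9.5 at 1 RPM and E10.5 at 20 RPM. The later onset of Dazl at 5 RPM rests on 1 library of 4.11 RPM at E9.5. At 20 RPM the order of the other genes depended on sex. Brdt, Tex101 and Taf7l all came on at E13.5 in females. In males Brdt came on at E13.5 and Tex101 and Taf7l at E14.5. The words rose and fell stand for genes past both thresholds in limma: a Benjamini-Hochberg adjusted p under 0.05 over all genes tested, and a log2 fold change, taken on RPM + 1, of 1 or more in size. All 6 genes rose at E15.5 against E11.5 in females, where 28.1% of 12567 genes tested rose, and all 6 in males, where 28.6% did. The median log2 fold change of the 6 was 3.38 in females and 3.69 in males, against 0.10 and 0.21 over all genes tested.

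Dazl measured 5.86 and 4.11 RPM at E9.5, 24.4 and 25.4 at E10.5, and 246 and 248 at E11.5. In females it measured 1386 and 1359 RPM at E12.5, 1659 and 1819.8 at E13.5, 2365 and 2017 at E14.5, and 1878 and 1621 at E15.5. In males it measured 1245 and 1269.8 RPM at E12.5, 1607 and 1500.4 at E13.5, 1139 and 1103 at E14.5, and 896 and 649 at E15.5. Every library at E10.5 was above every library at E9.5, the same held for each later step up to E12.5, and the male level was lower again at E15.5 than at E13.5. The steepest step was E11.5 against E10.5, with a log2 fold change of 3.26 (SE 0.13, adjusted p = 2.69e-14 in limma), where 0.557% of genes tested rose.

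Ddx4 measured 25.2 and 18.7 RPM at E9.5, 57 and 68.7 at E10.5, and 164 and 148 at E11.5. In females it measured 438 and 442 RPM at E12.5, 636 and 579 at E13.5, 595 and 570.0 at E14.5, and 568 and 511 at E15.5. In males it measured 406 and 432 RPM at E12.5, 539.9 and 512 at E13.5, 734 and 741 at E14.5, and 734 and 735 at E15.5. The level climbed gradually up to E13.5, and its step from E12.5 to E13.5 was not called in either sex. Later levels were flat in females and somewhat higher in males. Across the change to the Ddx4 reporter the level moved little: the log2 difference of E14.5 and E13.5 was -0.06 in females (SE 0.12, adjusted p = 0.691 in limma) and 0.49 in males (SE 0.12, adjusted p = 0.00115), under the fold threshold in both.

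Slc25a31 measured 5.63 and 6.04 RPM at E9.5, 23.4 and 25.4 at E10.5, and 58.3 and 62.6 at E11.5. In females it measured 130.4 and 138 RPM at E12.5, 300.4 and 302 at E13.5, 866 and 773 at E14.5, and 870.1 and 803 at E15.5. In males it measured 147 and 141 RPM at E12.5, 222 and 199.6 at E13.5, 454 and 453 at E14.5, and 483 and 505 at E15.5. No library of one stage overlapped the next up to E14.5 in either sex. The gene rose at each female step from E10.5 to E14.5, by 1.14 to 1.89 on the log2 scale, and in males at each of these steps but E13.5 against E12.5 (0.55, SE 0.11).

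Tex101 measured 1.8 and 0.967 RPM at E9.5, 1.82 and 3.41 at E10.5, and 5.77 and 11.2 at E11.5. In females it measured 15.3 and 16.4 RPM at E12.5, 74.1 and 69.9 at E13.5, 944 and 972 at E14.5, and 1197 and 1075 at E15.5. In males it averaged 9.72 ± 2.57 RPM at E12.5 (SD, n = 2) and measured 7.3 and 12.1 at E13.5, 174 and 145 at E14.5, and 196 and 178 at E15.5. The gene stayed low through E12.5 and then climbed, a stage earlier in females than in males. Its E11.5 against E10.5 call (log2 fold change 1.37, SE 0.27, adjusted p = 0.00561 in limma) was lost without the first E10.5 library (adjusted p = 0.139) or the second E11.5 library (adjusted p = 0.16).

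Taf7l measured 0.901 and 1.21 RPM at E9.5, 2.86 and 0.524 at E10.5, and 1.31 and 0.321 at E11.5. In females it measured 2.43 and 2.82 RPM at E12.5, 61.4 and 62.2 at E13.5, 1093 and 1247 at E14.5, and 1183 and 1165 at E15.5. In males it measured 17.5 and 2.4 RPM at E12.5, 14 and 9.52 at E13.5, 97.9 and 103 at E14.5, and 80.4 and 100.2 at E15.5. The gene was near the smallest measurable amount through E11.5, and its male E12.5 libraries were far apart. Summed over the libraries it was represented by 8072 reads in female E15.5 cells and 6 reads at E11.5, a ratio per depth of 1355 with a counting interval of 622 to 3694. The male E12.5 call against E11.5 (log2 fold change 2.18, SE 0.47, adjusted p = 0.00289 in limma) was lost without the first male E12.5 library (adjusted p = 0.141) or the second E11.5 library (adjusted p = 0.0563).

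Brdt overlaps the processed pseudogene Gm8152 on the other strand, and whether counting used strand is not given in the sources used here, so reads of the pair cannot be told apart. Brdt measured 1.35 and 0.725 RPM at E9.5, 0.52 and 1.31 at E10.5, and 4.46 and 4.17 at E11.5. In females it measured 22.3 and 17.8 RPM at E12.5, 31.4 and 35.6 at E13.5, 58.9 and 42.2 at E14.5, and 38.3 and 44.5 at E15.5. In males it measured 11.2 and 10.6 RPM at E12.5, 30.1 and 27.9 at E13.5, 226 and 208 at E14.5, and 251 and 291 at E15.5. The female level was flat from E14.5 and the male level stepped up there. Male E14.5 against male E13.5 gave a log2 fold change of 2.86 (SE 0.25, adjusted p = 1.89e-09 in limma).

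**Figure D1:**
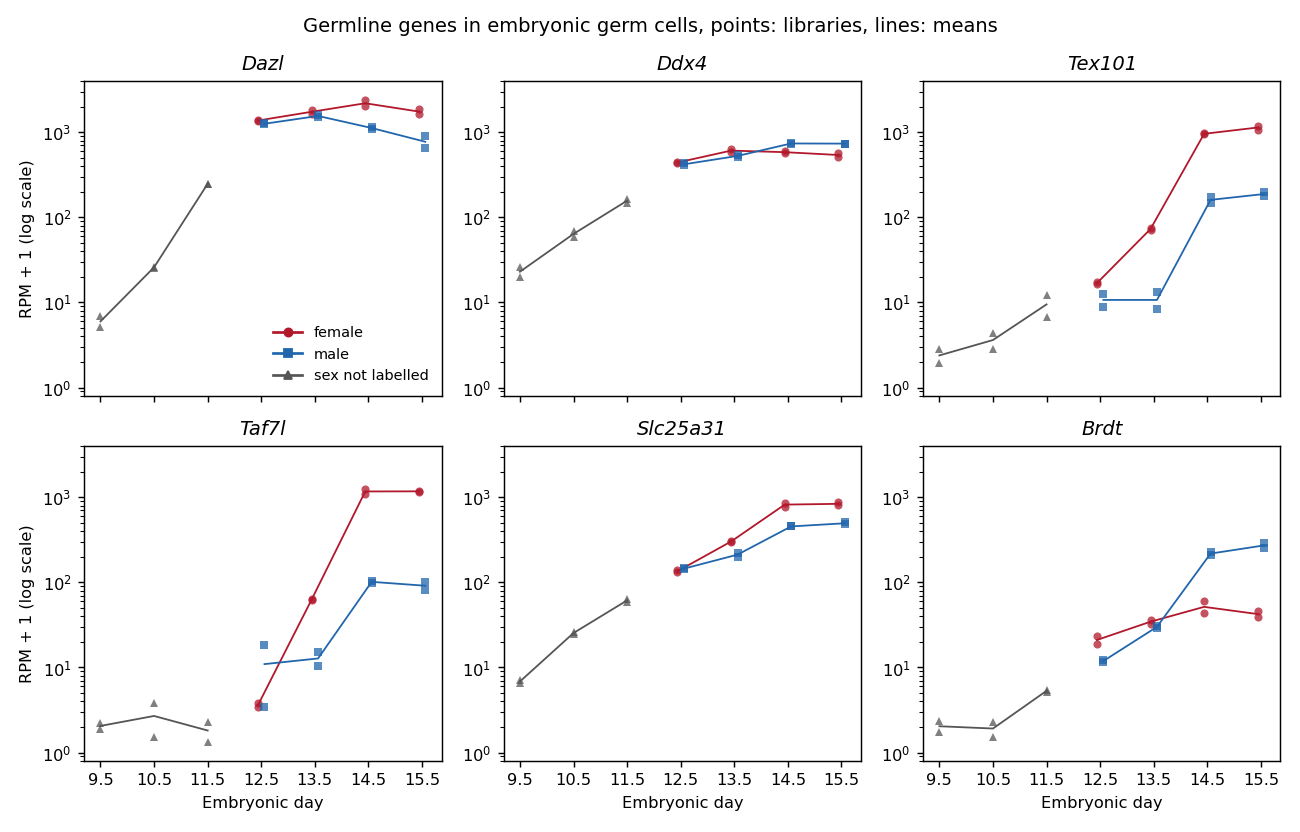
RPM + 1 on a log axis against embryonic day for the 6 genes, in female, male and unsexed germ cells. Points are libraries (2 per group) and lines join group means. Dazl, Ddx4 and Slc25a31 climb from E9.5, Tex101 and Taf7l reach 1136 and 1174 RPM in females at E15.5, and Brdt reaches 271 RPM in males.

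Counted by step, 3 of 6 genes rose at E10.5 against E9.5 (Dazl, Ddx4 and Slc25a31), where 2.56% of genes tested rose and the blood marker sum was lower. At E11.5 against E10.5 5 of 6 rose, all but Taf7l (background 0.557%), and the blood marker sum was lower again. Whether that blood signal has a part in these steps was not tested. Spike-in transcripts summed to 1114.3 and 475.4 RPM at E9.5 and to 15291.1 and 15343.9 RPM at E10.5. Stage and spike-in level thus cannot be told apart across that step. At E12.5 against E11.5 4 of 6 rose in females (background 5.04%), all but Tex101 and Taf7l, and 5 of 6 in males (background 3.56%), all but Tex101. Without the second E11.5 library Tex101 was called in females too (log2 fold change 1.31, adjusted p = 0.00511 in limma). At E13.5 against E12.5 the risers were Tex101, Taf7l and Slc25a31 in females (background 4.73%) and Brdt in males (background 2.44%), joined by Taf7l when the first male E12.5 library was left out (1.88, adjusted p = 0.00844). At E14.5 against E13.5 Tex101, Taf7l and Slc25a31 rose in females (background 16.5%), and the same genes and Brdt in males (background 19.0%). At E15.5 against E14.5 limma called 0 of 6 in either sex, where 1.46% of genes rose and 3.45% fell in females and 1.35% rose and 0.557% fell in males, and 1 of 6 had an unadjusted p under 0.05 in each, Dazl, with the lower mean at E15.5.

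Between the sexes the genes went different ways. Tex101 and Taf7l were higher in females from E13.5, Brdt was lower in females from E14.5, and Dazl was higher in females at E15.5. At E12.5 limma called 0 of 6 (3.77% of all genes rose and 2.75% fell in females relative to males), and 3 of 6 had an unadjusted p under 0.05. Without the second male E12.5 library Taf7l was called lower in females there (-2.35, adjusted p = 0.000619 in limma). At E13.5 2 of 6 were higher in females (background 10.4%). At E14.5 2 of 6 were higher (background 22.4%) and 1 lower (background 25.9%), and at E15.5 3 of 6 were higher (background 23.7%) and 1 lower (background 30.0%). The single gene that was lower is a smaller share of the 6 than the background at both stages.

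Tex101 averaged 1136 ± 86.3 RPM in female E15.5 cells and 187 ± 12.6 in male E15.5 cells (SD, n = 2 each), a log2 fold change of 2.60 (SE 0.27, adjusted p = 6.64e-09 in limma). Taf7l averaged 1174 ± 12.8 RPM in females and 90.3 ± 14 in males, a log2 fold change of 3.69 (SE 0.47, adjusted p = 2.59e-07). Brdt averaged 41.4 ± 4.39 RPM in females and 271 ± 28.3 in males, a log2 fold change of -2.68 (SE 0.25, adjusted p = 1.23e-09). For these 3 genes no female library overlapped a male library at E14.5 or E15.5. Dazl averaged 1749 ± 182 RPM in females and 772 ± 175 in males (1.19, SE 0.13, adjusted p = 2.09e-08), and without the second male library the log2 fold change was 0.96, under the threshold. At E14.5 Dazl was 0.96 on that scale with all libraries, which is not a call, and 1.08 without the second female library, which is.

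Ddx4 and Slc25a31 were not called between the sexes at any stage. Ddx4 averaged 539.5 ± 39.8 RPM in female E15.5 cells and 735 ± 0.46 in male E15.5 cells (log2 difference -0.45, SE 0.12, adjusted p = 0.00153 in limma), and the female libraries at E14.5 and E15.5 were below the male ones. Slc25a31 averaged 836 ± 47.6 RPM in females and 494 ± 15.9 in males (0.76, SE 0.11, adjusted p = 8.51e-07), with female libraries above male ones from E13.5. Both differences passed the p threshold and not that on fold. Tested directly, the female against male difference at E15.5 less that at E12.5 was higher for Dazl, Tex101 and Taf7l (3 of 6, background 22.2%) and lower for Brdt (1 of 6, background 27.7%). The Dazl value there was 1.07 and went under the threshold without the second male (0.83) or the first female (0.96) E15.5 library. Summed gonadal somatic markers were 5.48 to 8.07 RPM in female E15.5 cells and 26.8 to 30.4 in male E15.5 cells, with Amh at 0 in all. Fibroblast and feeder markers summed to 184 to 205 RPM in females and 277 to 279 in males (6 of 7 tested were lower in females), and germ cell markers to 56.2 to 81.5 RPM in females and 1989.8 to 2381 in males (6 of 8 tested were lower in females). Their part in these differences was not tested.

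In untreated culture 4 of the 6 genes rose by day 3, and Tex101 and Taf7l were not called. In 129S1:C57BL/6 PGCLCs under CT, Ddx4 was at or above 5 RPM from day 0, Dazl and Slc25a31 from day 3, and Tex101, Taf7l and Brdt did not reach and hold that level in both libraries by day 9. At a threshold of 1 RPM Brdt was on from day 3. At CT day 3 against day 0, 4 of 6 rose (Dazl, Ddx4, Slc25a31 and Brdt), where 3.03% of 11873 genes tested rose. At CT day 9 against CT day 3 only Dazl of the 6 rose (background 1.66%), and the step lay between day 3 and day 5 (background 0.211%). Without the second day 0 library Taf7l was called lower at CT day 3 (-1.97, adjusted p = 0.0386 in limma). From day 5 to day 7, and from day 7 to day 9, limma called 0 of 6, where 0% and 0.0590% of genes rose and 0% and 0.0168% fell, and 1 and 3 of 6 had an unadjusted p under 0.05.

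Dazl measured 7.04 and 3.26 RPM at day 0, 41.8 and 43.8 at CT day 3, 201 and 269 at CT day 5, 145 and 247 at CT day 7, and 207 and 264 at CT day 9. Ddx4 measured 12.3 and 6.89 RPM at day 0, 45.1 and 29.5 at CT day 3, 71.1 and 50.3 at CT day 5, 48 and 46.8 at CT day 7, and 55 and 63.4 at CT day 9. Slc25a31 measured 1.47 and 1.09 RPM at day 0, 11.8 and 11.8 at CT day 3, 19.4 and 17.6 at CT day 5, 7.35 and 11.4 at CT day 7, and 12.9 and 14.6 at CT day 9. Dazl thus climbed in both intervals up to day 5, and its libraries and those of Ddx4 showed no called change after it. Slc25a31 was lower at CT day 7 than at CT day 5 in both libraries (log2 difference -0.94, SE 0.25, 95% interval -1.44 to -0.43, adjusted p = 0.324 in limma) and higher again at CT day 9 (0.53, SE 0.25, 95% interval 0.02 to 1.04, adjusted p = 0.7), and neither step passed the thresholds. For CT day 3 against day 0 the log2 fold changes were 2.90 for Dazl (SE 0.26), 1.87 for Ddx4 (SE 0.22) and 2.50 for Slc25a31 (SE 0.25), with adjusted p = 6.19e-08, 4.53e-06 and 2.45e-07 in limma.

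Brdt was listed at 0 in both day 0 libraries and measured 5.92 and 3.68 RPM at CT day 3, 11.7 and 4.71 at CT day 5, 5.88 and 13.3 at CT day 7, and 4.82 and 3.56 at CT day 9. CT day 3 held 28 reads and day 0 held 0, and 3 reads over the day 0 group would give a ratio per depth of 10.0. No counting interval was computed for that ratio, so it is not a lower bound. Tex101 measured 0.587 and 0.725 RPM at day 0 and lay between 0 and 2.2 RPM in all 8 CT libraries. Taf7l measured 3.52 and 0.362 RPM at day 0 and lay between 0 and 1.62 RPM in all 8 CT libraries. Against a limit of 0.7 to 1.19 RPM for 3 reads in this line, these levels were at or near what could be measured.

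Set beside the embryo, CT day 9 cells averaged 235 ± 40.3 RPM of Dazl, close to the 247 ± 0.837 of E11.5 germ cells. Ddx4 averaged 59.2 ± 5.9 RPM at CT day 9, against 156 ± 11.8 at E11.5, and Slc25a31 13.7 ± 1.2 RPM against 60.4 ± 3.03. Brdt averaged 4.19 ± 0.893 RPM at CT day 9, against 4.32 ± 0.206 at E11.5, and Tex101 0.323 ± 0.457 RPM, against 8.5 ± 3.86. The embryo and culture libraries differ in strain and sorting and were fitted separately, so no test joins them.

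RA and RB were compared with CT, and with each other, to see what each added. Both comparisons with CT use the same CT libraries. At day 5, 2 days after the labelled start of the factors, limma called 0 of 6 for RB against CT (0.556% of genes rose, 0.118% fell), 0 of 6 for RA against CT (0.227% rose, 0.0168% fell) and 0 of 6 for RB against RA (0.0421% rose, 0% fell). At an unadjusted p under 0.05 these comparisons held 1, 2 and 0 of 6. At day 7, 5 of 6 rose in RB, all but Brdt, which was called only without the second CT library (1.51, adjusted p = 0.0205 in limma; background 15.7%), and 3 of 6 in RA (Dazl, Taf7l and Slc25a31, background 4.68%). At day 9, 6 of 6 rose in RB (background 24.6%) and 5 of 6 in RA, all but Ddx4 (background 13.3%). For RB against RA 4 of 6 rose at day 7 (Ddx4, Tex101, Taf7l and Slc25a31, background 3.58%) and 6 of 6 at day 9 (background 13.1%). The median log2 fold change of the 6 at day 9 was 4.17 for RB and 2.27 for RA, against 0.19 and 0.20 over all genes tested.

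Tex101 measured 1.17 and 1.23 RPM in RB, 0.299 and 0.59 in RA, and 1.83 and 2.2 in CT at day 5. At day 7 it measured 44.3 and 75.9 RPM in RB, 3.57 and 4.05 in RA, and 0.98 and 1.55 in CT. Day 9 values were 649.7 and 754 RPM in RB, 17 and 27.6 in RA, and 0 and 0.647 in CT. The 3 conditions did not overlap at day 7 or day 9, with RB the highest and CT the lowest. At day 9 RB was above RA by 4.95 on the log2 scale (SE 0.38, adjusted p = 1.68e-09 in limma). CT day 9 held 2 reads of Tex101 in all, and the ratio per depth of RB to it was 2206 (counting interval 610.2 to 18219).

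Taf7l measured 2.33 and 0.925 RPM in RB, 2.69 and 0.885 in RA, and 0.733 and 1.57 in CT at day 5. Day 7 values were 89.9 and 103 RPM in RB, 5.65 and 14.2 in RA, and 0.735 and 0.928 in CT. At day 9 values were 793 and 1066 RPM in RB, 61.8 and 77.1 in RA, and 0.321 and 1.62 in CT. As for Tex101 the 3 conditions were apart from day 7. RB was above RA at day 9 by 3.72 (SE 0.50, adjusted p = 2.86e-06 in limma), and the ratio per depth to the 6 reads in CT was 987 for RB (counting interval 453 to 2692) and 72.3 for RA (33 to 198). The RA call at day 7 (2.46, SE 0.50, adjusted p = 0.00295) was lost without the second RA library (adjusted p = 0.109).

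Slc25a31 measured 24.7 and 15.7 RPM in RB, 20 and 19.5 in RA, and 19.4 and 17.6 in CT at day 5. At day 7 it measured 119 and 154 RPM in RB, 30.9 and 33.1 in RA, and 7.35 and 11.4 in CT. At day 9 it measured 459 and 578 RPM in RB, 80.7 and 101 in RA, and 12.9 and 14.6 in CT. The RB and CT libraries overlapped at day 5 and no condition overlapped another from day 7. At day 9 the log2 fold change was 5.14 for RB against CT (SE 0.25, adjusted p = 1.4e-13 in limma) and 2.64 for RA against CT (SE 0.25, adjusted p = 4.69e-08).

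Dazl measured 323 and 477 RPM in RB, 316 and 429 in RA, and 201 and 269 in CT at day 5. Day 7 values were 1054 and 1398 RPM in RB, 604 and 824 in RA, and 145 and 247 in CT. Day 9 values were 2065 and 2268 RPM in RB, 843 and 908 in RA, and 207 and 264 in CT. At each of these days both RB and both RA libraries were above both CT libraries. At day 9 the log2 fold change was 3.21 for RB against CT (SE 0.26, adjusted p = 6.1e-10 in limma), 1.90 for RA against CT (SE 0.26, adjusted p = 1.08e-05) and 1.31 for RB against RA (SE 0.26, adjusted p = 0.000332).

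Ddx4 measured 62.5 and 50.9 RPM in RB, 70.8 and 68.1 in RA, and 71.1 and 50.3 in CT at day 5. At day 7 it measured 145 and 147 RPM in RB, 61.8 and 68.9 in RA, and 48 and 46.8 in CT. At day 9 values were 362 and 444 RPM in RB, 71.2 and 74.1 in RA, and 55 and 63.4 in CT. RB stood well apart from day 7, while the RA libraries lay just above the CT libraries at days 7 and 9. The RA against CT log2 difference at day 9 was 0.29 (SE 0.22, 95% interval -0.17 to 0.76, adjusted p = 0.355 in limma), while RB against RA was 2.45 (SE 0.22, adjusted p = 1.6e-08). At day 7 the RB against RA call (1.15, SE 0.22, adjusted p = 0.00284) was lost without the second RB library (adjusted p = 0.0551).

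At day 5 Brdt averaged 11.3 ± 1.08 RPM in RB (SD, n = 2) and measured 13.4 and 9.14 RPM in RA and 11.7 and 4.71 in CT. Day 7 values were 15.8 and 21.8 RPM in RB, 9.51 and 9.45 in RA, and 5.88 and 13.3 in CT. At day 9 it measured 33.4 and 38.6 RPM in RB, 13.9 and 9.85 in RA, and 4.82 and 3.56 in CT. The conditions overlapped at day 5 and were apart at day 9. The log2 fold change at day 9 was 2.84 for RB against CT (SE 0.39, adjusted p = 1.94e-06 in limma) and 1.30 for RA against CT (SE 0.39, adjusted p = 0.0164). The RA call was lost without the first RA library (adjusted p = 0.13), without the second CT library (adjusted p = 0.118), with quantile normalization (adjusted p = 0.116) and with a pseudocount of 5 RPM (log2 fold change 0.87).

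**Figure D2:**
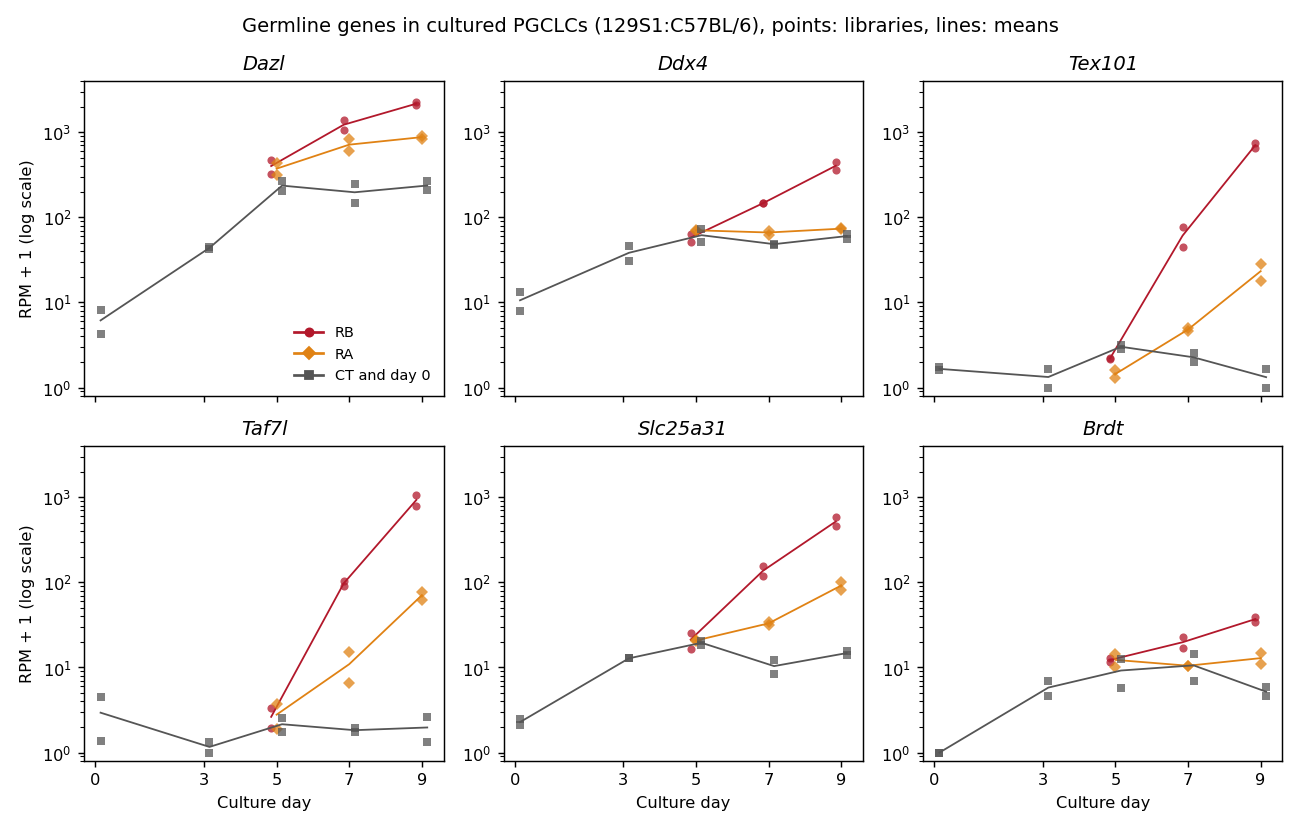
RPM + 1 on a log axis against culture day for the 6 genes in 129S1:C57BL/6 PGCLCs under RB, RA and CT, with day 0 joined to CT. Points are libraries (2 per group) and lines join group means. Tex101 and Taf7l stay near the bottom under CT, Ddx4 under RA (72.7 RPM at day 9) runs beside CT (59.2 RPM), and RB is the highest line in all 6 panels at day 9.

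The change of each effect with time was tested as the difference at day 9 less that at day 5. For RB against CT it was positive and called in 6 of 6 genes (background 20.2%), for RA against CT in 4 of 6 (Dazl, Tex101, Taf7l and Slc25a31, background 5.94%) and for RB against RA in 5 of 6, all but Brdt (background 9.32%). Brdt there was 1.52 (SE 0.56, adjusted p = 0.051 in limma) and was called with a replicate block (adjusted p = 0.0458), a filter at 20 RPM (0.0385), quantile normalization (0.0261) and a pseudocount of 5 RPM (1.28, adjusted p = 0.0139). The Dazl changes of RA against CT (1.24, adjusted p = 0.0387 in limma) and RB against RA (1.21, adjusted p = 0.0202) lost their call when a single library of days 5 or 9 was left out, with adjusted p up to 0.137 and 0.103. With no filter on low values both Dazl changes also lost their call (adjusted p = 0.133 and 0.0807 in limma). That of RA against CT did so with median centring (0.93, adjusted p = 0.146) and quantile normalization (adjusted p = 0.0626) too. Within a condition, RB day 9 against RB day 5 gave 6 of 6 higher (background 24.5%). In RA Ddx4 averaged 72.7 ± 2.05 RPM at day 9 and 69.4 ± 1.87 at day 5, and Brdt 11.9 ± 2.84 at day 9 and 11.3 ± 3.04 at day 5. Neither passed the thresholds between these days. Dazl, Tex101, Taf7l and Slc25a31 rose there. Their RA means were 875, 22.3, 69.4 and 91.1 RPM at day 9. At day 5 they were 372, 0.444, 1.79 and 19.7 RPM. The Dazl call was lost with median centring (log2 fold change 0.96). The median log2 fold change of the 6 was 1.69, against 0.21 over all genes tested. Fibroblast and feeder markers summed to 219 to 241 RPM in RB, 390.1 to 560.2 in RA and 548 to 645 in CT at day 9, and the early germ cell markers to 601 to 602, 1347 to 1440.5 and 2726 to 2840.5 RPM in the same order. Gonadal somatic markers summed to 14 to 27.8 RPM in RB and 0.647 to 3.21 in CT, with Nr5a1 and Amh at 0 in RB, RA and CT. The part of these markers in the results was not tested.

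RB day 9 cells stood nearer to female E14.5 germ cells than CT cells did in each gene, as values side by side. Dazl averaged 2167 ± 144 RPM in RB day 9 cells and 2191 ± 246 in female E14.5 cells. Ddx4 averaged 403 ± 58.1 RPM in RB cells and 582 ± 17.6 in the embryo, Tex101 702 ± 73.9 and 958 ± 19.3, and Taf7l 929.8 ± 193 and 1170.4 ± 109. Slc25a31 averaged 518 ± 83.9 RPM in RB cells and 819.7 ± 65.7 in the embryo, and Brdt 36 ± 3.73 and 50.5 ± 11.8. The RB means were below the embryo means in all 6 genes, with overlapping libraries for Dazl.

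The single day 9 library named 0R3B had 2097 RPM of Dazl, 617 of Ddx4, 1550.3 of Tex101, 647 of Taf7l, 733 of Slc25a31 and 54.1 of Brdt. Its Ddx4, Tex101, Slc25a31 and Brdt values were above both RB day 9 libraries, its Taf7l value was below both, and Dazl lay between them. The exact Poisson interval of its Tex101 value was 1504 to 1598 RPM and that of Taf7l 617 to 678, for counting error only. With 1 library there is no replicate check. In the C57BL/6 line the single c7RB library at day 9 had 1342 RPM of Dazl, against 261 in c7CT, with intervals of 1307 to 1378 and 244 to 279.7. It had 98.9 RPM of Ddx4, against 92.7 in c7CT, and these intervals overlapped (89.4 to 109 and 82.5 to 104). Tex101 was at 13.8 and 3.1 RPM, Taf7l at 29.4 and 2.79, Slc25a31 at 103 and 16.1, and Brdt at 46.3 and 4.03 in c7RB and c7CT, with intervals apart in all 4 genes. Spike-in transcripts summed to 9.2 RPM in c7RB and 27188.2 RPM in c7CT, so condition and spike-in level cannot be told apart between them. The c7 library of this line, at day 7, had 275 RPM of Dazl, 96 of Ddx4, 10.7 of Slc25a31, 5.9 of Brdt, 3.75 of Taf7l and 2.14 of Tex101, with intervals that overlap those of c7CT in all 6 genes. Its day 0 library had 2.31 RPM of Dazl and 5.54 of Ddx4, with Slc25a31 and Tex101 at 0 reads, where 3 reads would be 1.38 RPM and the 95% Poisson upper bound is 1.7 RPM. At day 2 the library named c0RB had 42.1 RPM of Dazl and 9.98 of Slc25a31, and c0CT had 23.8 and 3.02.

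In the Stra8 experiment the targeted gene was measured first. Stra8, the meiotic gatekeeper of the female germ line, averaged 6.98 ± 4.11, 74.2 ± 86.6 and 197 ± 192 RPM at days 5, 7 and 9 in knockout cells (SD, n = 4), and 192 ± 1.35, 1427 ± 17.2 and 1765 ± 68.3 RPM at those days in wild type cells (SD, n = 2). Knockout libraries ran up to 483 RPM at day 9. The deleted part is not named in the labels, and reads of the 3' end outside it would still be counted, so this signal does not check the deletion.

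Tex101, Taf7l and Slc25a31 were lower in the knockout at days 7 and 9, and Dazl, Ddx4 and Brdt were not called at any day. At day 3, under CT, limma called 0 of 6 (0% of 12206 genes were lower and 0.00819% higher, 0 of 6 with an unadjusted p under 0.05), and at day 5 it called 0 of 6 (0.0164% lower, 0% higher), with 2 of 6 (Tex101 and Taf7l) at an unadjusted p under 0.05. At day 5 Tex101 measured 1.04, 3.3, 0.86 and 0.686 RPM in knockout cells, against 3.17 and 3.74 RPM in wild type cells, and Taf7l 3.13, 2.92, 0 and 0.343 RPM in knockout cells, against 5.6 and 4.75 RPM in wild type cells. Dazl measured 988, 866, 458 and 584 RPM in knockout cells at that day, against 682 and 769 RPM in wild type cells, and the genotypes overlapped for Dazl and Tex101. At day 7, 3 of 6 were lower (background 5.57%), and at day 9, 3 of 6 (background 8.35%). The median log2 fold change of the 6 was -1.02 at day 7 and -0.97 at day 9, against -0.09 and 0.09 over all genes tested.

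Tex101 measured 20.4, 15.1, 13 and 14 RPM in knockout cells at day 7, against 126 and 101 RPM in wild type cells. Day 9 values were 235, 185, 117 and 125 RPM in knockout cells, against 771 and 785 RPM in wild type cells. Every knockout library was below every wild type library at both days. The log2 fold change was -2.79 at day 7 (SE 0.33, adjusted p = 5.54e-07 in limma) and -2.29 at day 9 (SE 0.33, adjusted p = 1.44e-06).

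Taf7l measured 44.4, 28.9, 18.8 and 13 RPM in knockout cells at day 7, against 172 and 151 RPM in wild type cells. At day 9 values were 350.4, 314, 285 and 253 RPM in knockout cells, against 834 and 783 RPM in wild type cells. The groups were again apart at both days. The log2 fold change was -2.71 at day 7 (SE 0.47, adjusted p = 0.000121 in limma) and -1.43 at day 9 (SE 0.47, adjusted p = 0.0153). The day 9 call was lost without the first wild type library (adjusted p = 0.0917), without the second (adjusted p = 0.0829), with a pseudocount of 0.5 RPM (adjusted p = 0.0604) and with no filter on low values (adjusted p = 0.0608).

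Slc25a31 measured 84.2, 84.1, 58.7 and 69.4 RPM in knockout cells at day 7, against 223 and 165 RPM in wild type cells. At day 9 it measured 233, 293, 254 and 190.1 RPM in knockout cells, against 525 and 630.2 RPM in wild type cells. No library of one genotype reached the other at either day. The log2 fold change was -1.37 at day 7 (SE 0.22, adjusted p = 5.89e-05 in limma) and -1.26 at day 9 (SE 0.22, adjusted p = 3.69e-05).

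At day 7 the other 3 genes were not called. Dazl measured 1392, 1193, 1041 and 841 RPM in knockout cells, against 944 and 1062 RPM in wild type cells, and Ddx4 166, 98.7, 123 and 120.0 RPM in knockout cells, against 239 and 164 RPM in wild type cells. Brdt measured 62, 40, 33.6 and 42.4 RPM in knockout cells, against 24.6 and 24.3 RPM in wild type cells. Every knockout library was above the wild type libraries for Brdt, and the genotypes overlapped for Dazl and Ddx4. The day 7 log2 differences were 0.13 for Dazl (SE 0.24, adjusted p = 0.737), -0.66 for Ddx4 (SE 0.18, adjusted p = 0.00817) and 0.80 for Brdt (SE 0.35, adjusted p = 0.106) in limma, and those of Ddx4 and Brdt had an unadjusted p under 0.05.

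At day 9 Dazl measured 1421, 1638, 1351 and 1266 RPM in knockout cells, against 1831 and 2263 RPM in wild type cells. Ddx4 measured 303, 304, 270.3 and 282 RPM in knockout cells, against 442 and 483 RPM in wild type cells. Brdt measured 44.1, 43.8, 37.8 and 60.3 RPM in knockout cells, against 47.8 and 19.7 RPM in wild type cells. The knockout libraries were all below the wild type ones for Dazl and Ddx4, and the genotypes overlapped for Brdt. The log2 differences were -0.53 for Dazl (SE 0.24, 95% interval -1.01 to -0.05, adjusted p = 0.0779 in limma), -0.67 for Ddx4 (SE 0.18, adjusted p = 0.00286) and 0.56 for Brdt (SE 0.35, 95% interval -0.15 to 1.27, adjusted p = 0.211). Without the first wild type library Brdt was called higher in the knockout (1.18, adjusted p = 0.0334).

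All 6 genes rose from their CT day 3 level in both genotypes. At RB day 9 against CT day 3 the count was 6 of 6 in knockout cells (background 25.6%) and 6 of 6 in wild type cells (background 27.8%). The difference between the genotypes at day 9 less that at day 3 was called lower for Tex101 and Slc25a31 (2 of 6, background 6.20%), and for Taf7l it was -1.29 (SE 0.66, adjusted p = 0.167), called with a pseudocount of 5 RPM (-1.42, adjusted p = 0.00472). The Slc25a31 call was lost without the second wild type library at day 3 (adjusted p = 0.0741) or at day 9 (adjusted p = 0.0585). Dazl was -0.95 there (adjusted p = 0.0374), just short of the fold threshold, and was called without the first wild type library at day 9 or without any of 3 knockout libraries (-1.02 to -1.16), and with median centring (-1.06, adjusted p = 0.0114) and quantile normalization (-1.13, adjusted p = 0.00823). At day 9 the early germ cell markers summed to 694 to 1011 RPM in knockout cells and 414 to 521 in wild type cells, and feeder markers to 321 to 450.5 and 251 to 358 RPM. Their part in the differences was not tested. The 4 knockout libraries come from 3 lines, and with the SK1 libraries averaged into 1 sample no value of the 6 genes that involves the knockout changed its call.

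**Figure D3:**
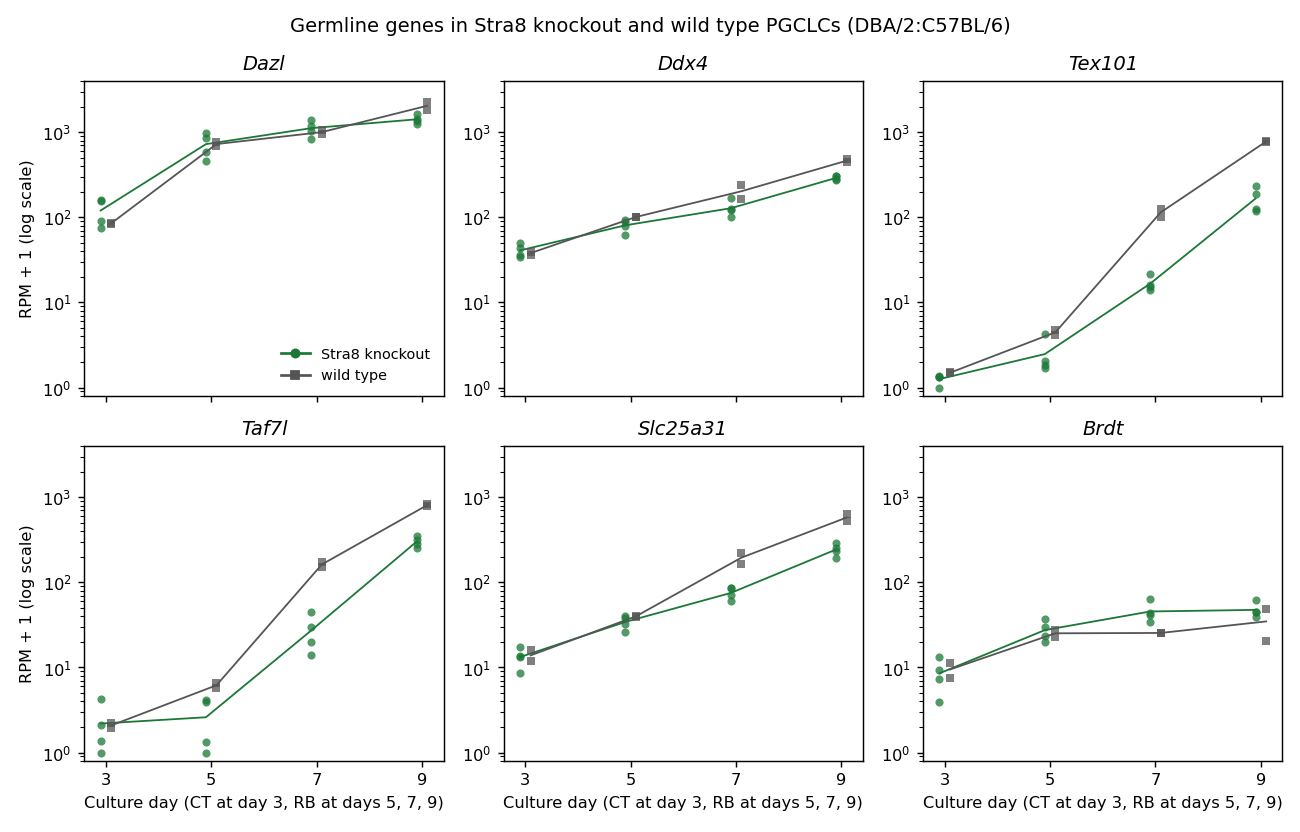
RPM + 1 on a log axis against culture day for the 6 genes in Stra8 knockout (4 libraries per day) and wild type (2 libraries per day) PGCLCs of the DBA/2:C57BL/6 background, under CT at day 3 and RB from day 5. Points are libraries and lines join group means. At day 9 the knockout line lies below the wild type line for Tex101 (165 and 778 RPM), Taf7l (301 and 808 RPM) and Slc25a31 (243 and 578 RPM), while for Brdt the points overlap.

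**Figure D4:**
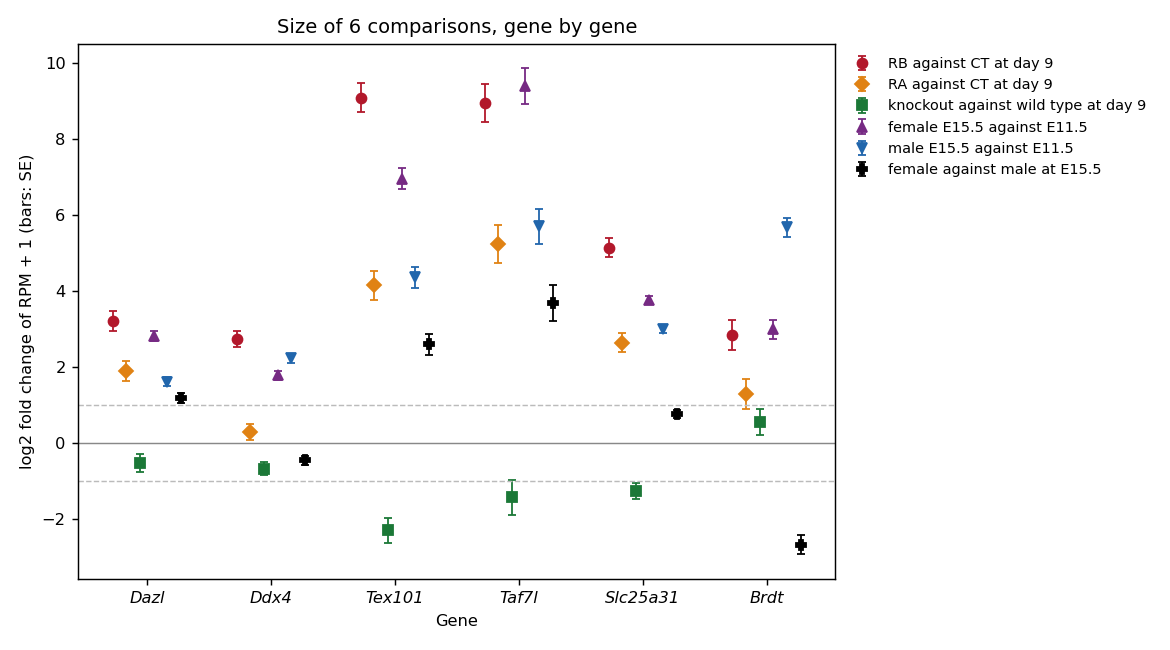
Log2 fold change of RPM + 1 for each of the 6 genes in 6 comparisons, with SE bars. Dashed lines mark the threshold of 1. RB against CT is above RA against CT for every gene, Ddx4 has the lowest RA value (0.29), and Brdt is below 0 for female against male at E15.5 (-2.68) while the other called genes there are above 0.

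A list of 20 other methylation-sensitive germline genes, chosen from general knowledge with earlier results of these data known, was counted in the same fits. In females at E15.5 against E11.5, 16 of 20 rose and 1 fell, where 28.1% of all genes tested rose and 24.5% fell (median log2 fold change 3.13, against 0.10 over all genes tested). In males 17 rose and 1 fell, where 28.6% rose and 18.5% fell. The synaptonemal complex genes Sycp3 and Sycp1 had the largest female values (7.75 and 7.40), and Tex19.1, a repressor of retrotransposons, fell by 1.67 on the log2 scale. At CT day 3 against day 0, 14 of 20 rose and 0 fell (3.03% and 2.43% of all genes), with Asz1, Fkbp6, Mov10l1 and Rpl10l the highest. Fkbp6 and Mov10l1, both of the piRNA pathway, averaged 12 and 8.53 RPM at day 3 and 0.88 and 0.587 RPM at day 0. At CT day 9 against CT day 3 4 of 20 rose and 0 fell (1.66% and 0.590% of all genes), namely Tuba3a, Hormad1, Tuba3b and Sohlh2.

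With RB at day 9, 17 of the 20 genes rose against CT and 0 fell, where 24.6% of all genes rose and 12.1% fell. With RA 12 rose and 0 fell against the same CT libraries, where 356 of 11873 genes fell and 13.3% rose. Sycp1 averaged 482 RPM in RB, 53.2 in RA and 1.29 in CT, and Sycp3 1509.8 RPM in RB, 52.2 in RA and 14.2 in CT. RB against RA gave 14 of 20 higher and 0 lower (13.1% and 11.7% of all genes). In the Stra8 knockout 10 of 20 were lower at day 7 and 0 higher (median -1.14), where 5.57% of all genes were lower and 3.16% higher. At day 9 7 were lower and 2 higher (median -0.42), where 8.35% were lower and 10.8% higher. At day 9 Sycp3 averaged 202 RPM in knockout cells and 1529 in wild type cells, while Tex19.1 (126 and 46.4 RPM) and Tdrd1 (21.1 and 8.03 RPM), a Tudor protein of the piRNA pathway, were higher in the knockout. Between the sexes at E15.5 8 of 20 were higher in females, led by Sohlh2, Rhox13, Sycp1 and Sycp3, and 7 lower, led by Tdrd1, Piwil2, Tex19.1 and Dpep3. Of all genes tested 23.7% were higher and 30.0% lower there, so the share of the list that was lower was near the background.

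Of 9 paralogues of the 6 genes with values, at RB day 9 against CT, 2 rose (Ly6k, a surface protein of the Tex101 family, and Boll of the Dazl family) and 4 fell. The 4 were Slc25a5 and Slc25a4, the somatic counterparts of Slc25a31, the helicase Ddx3x and the bromodomain gene Brd3. Over all genes tested 24.6% rose and 12.1% fell, so the share of paralogues that rose was near the background. Slc25a5 averaged 276 RPM in RB and 1403 RPM in CT (log2 fold change -2.36, adjusted p = 3.24e-10 in limma). In females at E15.5 against E11.5 Slc25a5 averaged 46.8 and 1368 RPM, and Slc25a4 146 and 1343 RPM. Ly6k averaged 104 RPM in RB, 16.3 in RA and 0.321 in CT at day 9, and 62.5 RPM in knockout cells and 123 in wild type cells (-1.02, adjusted p = 0.0331).

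Of 8 genes of the DNA methylation machinery, 1 rose and 3 fell in RB against CT at day 9, where 24.6% of all genes rose and 12.1% fell, so that the share that rose was below the background. Uhrf1, which guides maintenance methylation, averaged 26.4 RPM in RB and 7.73 in CT. Tet1, a methylcytosine oxidase, averaged 21.6 RPM in RB and 158 in CT, and the de novo methylation genes Dnmt3l (1.46 and 6.93 RPM) and Dnmt3b (9.31 and 23.9 RPM) fell too. In the knockout 5 of 8 were higher than in wild type at day 9 and 0 lower, where 10.8% of all genes were higher and 8.35% lower, with Dnmt3l at 54.1 RPM in knockout cells and 2.53 in wild type cells. Of 9 repressors of germline genes tested, 1 rose and 1 fell in RB against CT at day 9. Of 9 later testis genes 1 passed the filter, and it was not called in that comparison.

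Over the mean log2(RPM + 1) of 22 embryo and 129S1:C57BL/6 groups, the genes closest to each of the 6 among 9485 genes were found as a description, since all points share libraries and depth. For Dazl they were Tuba3a, Cyct and Gm4779 (Pearson r 0.943, 0.941 and 0.926), and for Ddx4 Mael, Tex14 and Mov10l1 (0.960, 0.959 and 0.959). For Tex101 they were Tktl1, Sycp2 and Gm10567 (0.982, 0.977 and 0.975), and for Taf7l Slc35b4, 2610020H08Rik and Eif2c4 (0.982, 0.977 and 0.976). For Slc25a31 they were Stk31, Tex12 and Mael (0.974, 0.974 and 0.973), and for Brdt Fam102a, 3110043O21Rik and Kdm1b (0.957, 0.955 and 0.953). Among the 6 genes the closest pair was Taf7l and Tex101 (0.96), followed by Ddx4 and Slc25a31 (0.95), and the most distant was Dazl and Taf7l (0.66).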

How the data were processed

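RNA from 75 libraries in 37 groups was measured by SC3-seq. The authors deposited 1 table of signal in RPM for 26218 genes and 96 spike-in transcripts, in which the gene values of every library have about the same sum. Per the submitters' processing notes the build was mm10 and the tools were TopHat 1.4.1, Bowtie 1.0.1, Cufflinks 2.2.0 and cutadapt 1.11. Each step's settings are not given in the sources used here. Values under 0.001 RPM (2777 above 0) were set to 0. Depth was estimated from the RPM of 1 read, and 81.0 to 93.1% of low values were whole reads within 0.05 reads, so no count test was run.

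Genes with at least 5 RPM in at least 2 libraries of an experiment were tested on log2(RPM + 1), which understates changes of low genes, with limma 3.58.1 in R 4.3.3 (1 mean per group, eBayes with trend). The fits held 22 embryo libraries (12567 genes), 22 of 129S1:C57BL/6 (11873) and 24 of DBA/2:C57BL/6 (12206), with median residual SD of 0.27, 0.28 and 0.30. Benjamini-Hochberg adjustment covered all genes of a fit, and the procedure was tested on simulated data. Read ratios carry exact conditional 95% intervals, which, like the Poisson intervals, cover counting error only. Promoters are RefSeq windows (GRCm38.p6), with all 6 genes matched by symbol. Nothing in the labels shows that replicates are separate cultures or animals, and the p-values cover the spread between libraries alone. The members and lists were chosen with earlier results of these data known. Named are the 6 genes, up to 4 called genes of a list with the largest change each way, the 3 most similar genes per member, Stra8, and genes not called where a count is described. Alternatives were other pseudocounts, filters and scalings, a replicate block and leaving out each library. The 7 single libraries were used as values only.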

Additional observations from a re-analysis of the deposited data

Results flagged for a closer look

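In groups of 4 libraries, 24 sets of values of the 6 genes were examined for a library far from the others, of which chance flags about 1 in 20. Tex101 stood out in knockout cells at day 3, where 1 library was at 0 and the other 3 at 0.319 to 0.383 RPM, all under 3 reads. It also stood out at day 5, where 1 library was at 3.3 RPM and the others at 0.686 to 1.04 RPM.

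Several differences changed between stages or days by a direct test of the change in limma. The log2 difference of females and males at E15.5 less that at E12.5 was 1.07 for Dazl, 1.93 for Tex101, 4.82 for Taf7l and -3.49 for Brdt. The day 9 effect of RB against CT less that of day 5 was 2.45 for Dazl, 2.83 for Ddx4, 9.55 for Tex101, 8.69 for Taf7l, 5.05 for Slc25a31 and 2.32 for Brdt. The same change for RA against CT was 1.24 for Dazl, 5.21 for Tex101, 4.91 for Taf7l and 2.55 for Slc25a31. For RB against RA it was 1.21 for Dazl, 2.74 for Ddx4, 4.33 for Tex101, 3.77 for Taf7l and 2.49 for Slc25a31. These 3 sets share libraries and are not independent. The knockout against wild type difference at day 9 less that at day 3 was -2.03 for Tex101 and -1.16 for Slc25a31. The Dazl changes of RA against CT and RB against RA lost their call without any of 6 and any of 4 libraries. Both also lost it with no filter on low values.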

How the results depend on the processing

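The log2 fold changes of the 6 genes were recomputed in 3096 alternative values, of which 3039 kept direction and side of the threshold, 38 lost their call, 19 gained one and 0 reversed. In the main comparisons counts of called genes held within 1.5 times, except that leaving out 1 library took the count lower at CT day 3 against day 0 from 0 to 1 (Taf7l without the second day 0 library) and the count higher in the knockout at day 9 from 0 to 1 (Brdt without the first wild type library). Elsewhere a pseudocount of 5 RPM took the count higher at E11.5 against E10.5 to 3, and single libraries left out took the count higher in males at E13.5 against E12.5 to 2, lower in females at E12.5 to 1, and lower in the knockout at day 9 less day 3 to 1. Over single libraries left out, the count for RA against CT at day 9 ran from 4 to 5, for females higher at E14.5 and at E15.5 from 2 to 3, and for lower in the knockout at day 9 from 2 to 3. Where a group was left with 1 library, it was assumed to vary like the other groups. A pseudocount of 5 RPM ended the calls of Tex101 (0.80) and Brdt (0.66) at E11.5 against E10.5 and of Brdt in males at E12.5 against E11.5 (0.77), at CT day 3 against day 0 (0.96) and in RA against CT at day 9 (0.87), as it shrinks the fold changes of low genes. It gained Taf7l in the knockout against wild type, day 9 less day 3 (-1.42), and Brdt in RB against RA, day 9 less day 5 (1.28). Median centring moved the median over all genes by -0.13 for RB against CT at day 9. Onset moved in 22 of 42 cases at a threshold of 1 RPM and in 25 at 20 RPM (a threshold not reached gave no value). With quantile normalization 403 list counts held within 1.5 times and 27 moved. The replicate numbers did not meet the bar for pairing, a correlation over 0.1 in every pair of groups: 0 of 55 pairs did in the embryo, 11 of 55 in 129S1:C57BL/6 (up to 0.24) and 2 of 6 in DBA/2:C57BL/6. In 129S1:C57BL/6 Dazl was nonetheless higher in the library numbered 2 in every replicated group from day 3 on. With the replicate block 257 of 258 values kept their call, and Brdt in RB against RA, day 9 less day 5, gained one (1.52, adjusted p = 0.0458). Levels under 3 reads limit Tex101, Taf7l and Brdt.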
